A study of Mus musculus with 8 samples.

Results

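The 36 genes described here are the contractile and structural genes of smooth muscle, with the transcription factors that drive them and a pair of genes of the interstitial cells of Cajal, the pacemaker cells that lie within the gut muscle. They were taken by name from the gene name column of 8 single-colour Agilent arrays, with 1 probe per gene, the one with the highest mean processed signal. Of the 36 names, 35 were found among the 36161 gene names on the array. Foxf1 had no probe under that name. Pln was well above background on 1 of 8 arrays and was not tested. The other 34 were well above background on all 8 arrays.

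Total RNA of the small intestine, taken from mouse embryos at E18.5, was hybridised to the arrays. The 4 control samples were wild type (Rfx6+/+). The 4 knockout samples were homozygous for an Rfx6 deletion (Rfx6-/-), bred from heterozygotes that came from a cross of Rfx6f/+ mice with CMV-Cre mice; the deletion was therefore inherited and not limited to the gut epithelium. Rfx6 encodes a transcription factor of endocrine cells, and the comparison asked which genes depend on it. Each sample had its own number in the labels, but nothing there says that the samples came from separate animals, so p-values measure only the spread between these samples. In whole intestine, fewer cells of a type and less RNA per cell cannot be told apart.

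Smooth muscle contracts when calcium, bound to calmodulin, activates myosin light chain kinase, which phosphorylates the regulatory light chain and lets myosin pull on actin filaments. The filaments are anchored at dense bodies and adhesion plaques, and desmin and synemin filaments tie these together. Most of these genes are switched on by serum response factor with its partner myocardin, which bind CArG boxes in their control regions. In the gut the muscle layers form from mesenchyme under hedgehog signals sent by the epithelium, and Foxf1 and Foxf2 act in that mesenchyme.

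Each level is the log2 ratio of the processed signal to the 75th percentile of its array, so 0 means a signal at that percentile. A difference is the knockout mean less the control mean, in log2 units, from limma fitted to all 23285 genes tested, and adjusted p-values are Benjamini-Hochberg values over all of them, with a threshold of 0.05. The array percentile lay between 636 and 741 signal units before scaling. All arrays shared 1 slide and 1 scan; row 1 of the slide held control 1 and knockout 2, 3 and 4, and row 2 held the others, so slide row and group were partly confounded. The single Rfx6 probe averaged -3.14 ± 0.40 on the controls and -2.76 ± 0.56 on the knockouts (SD, n = 4, limma adjusted p = 0.504), so it does not check the labels. Intestinal epithelium was present in both groups, with Vil1 and Cdx2 well above background on all arrays.

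Of the 34 tested members, 2 passed the threshold, both higher on the knockout arrays, and 0 were lower. They were Ano1 and Kit, the members that mark interstitial cells of Cajal. None of the 32 muscle genes passed. Among all genes tested, 4.91% passed, 2.32% called higher and 2.59% lower. At an unadjusted p under 0.05 in limma, 10 members were higher and 0 lower, against 7.66% and 12.8% of all genes.

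The members nevertheless leaned one way by small amounts. The difference was above 0 for 32 of 34, against 39.5% of all genes, and the median difference was 0.21, against -0.05 over all genes. The lean was not particular to the members. Among marker lists of other cell types, fibroblast and stroma genes lay above 0 for 10 of 10 (median 0.26). Endothelium did so for 6 of 7 (0.24) and striated muscle for 8 of 10 (0.25). Epithelium stood at 4 of 8 (0.08) and leukocytes at 2 of 5 (-0.09). All 4 knockout arrays lay above all 4 control arrays for 9 members, against 5.41% of all genes, and below them for 0 members, against 9.25%. These genes vary together from array to array, as described further on, so the counts describe 8 arrays and are not 34 separate observations. For 33 of the 34 members the 95% interval of the difference lay within a change of 2-fold either way; for Myh11 its upper end lay above that.

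**Figure D1:**
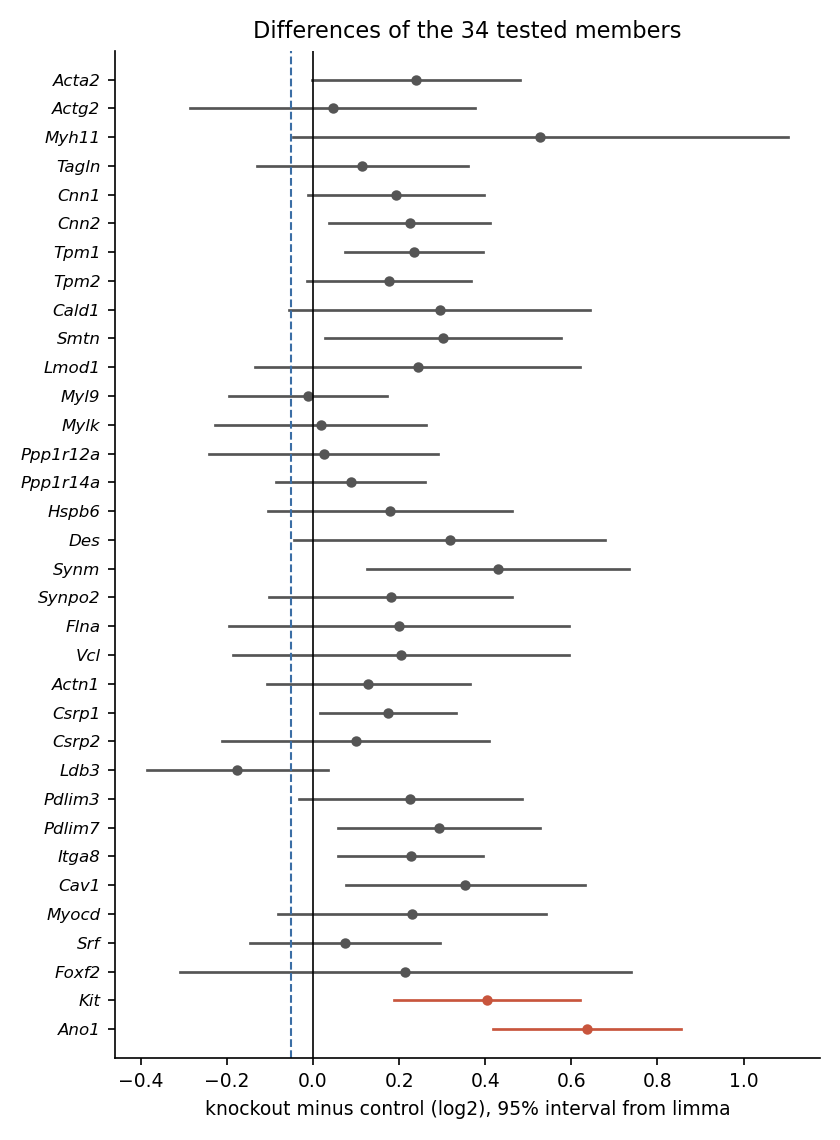
Difference between knockout and control arrays (log2 units, horizontal axis) for each of the 34 tested members, with the 95% interval from limma. Ano1 and Kit, in red, passed the threshold; the dashed line marks the median of all genes tested, -0.05, and 32 of the 34 points lie to the right of 0.

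Ano1 encodes a calcium-activated chloride channel that carries the pacemaker current of interstitial cells of Cajal; the channel is also made by several epithelia. Its probe lies at chr7:151774604-151774663 on mm9. The control arrays read 2.11, 2.22, 1.99 and 2.11, and the knockout arrays 2.83, 2.68, 2.56 and 2.90. The lowest knockout value was above the highest control value. The difference was 0.64 (SE 0.10, limma adjusted p = 0.0076), or 1.55-fold with a 95% interval of 1.34 to 1.81. It passed under all 19 alternative analyses, with adjusted p between 0.0026 and 0.0479 and a difference between 0.58 and 0.70. Within slide row 1 the difference was 0.60, and within row 2 it was 0.73.

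Kit encodes the receptor of stem cell factor, on which interstitial cells of Cajal depend, and it is also made by mast cells, melanocytes and blood progenitors. The probe lies at chr5:76052394-76052453 on mm9. On the control arrays it read -0.42, -0.33, -0.30 and -0.28, and on the knockout arrays 0.12, 0.26, 0.04 and -0.13. The groups did not overlap, with knockout 4 closest to the controls. Kit differed by 0.40 (SE 0.10, limma adjusted p = 0.0476), or 1.32-fold with an interval of 1.14 to 1.54.

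The call for Kit lay at the edge of the threshold and was lost in 12 of 19 alternatives, while the difference stayed between 0.34 and 0.47. Without control 1, 2, 3 or 4 its limma adjusted p was 0.135, 0.0719, 0.0977 and 0.0867. Without knockout 1, 2 or 3 it was 0.137, 0.129 and 0.0933, and without knockout 4 it was 0.0292. Within slide row 1 Kit differed by 0.48 and within row 2 by 0.42; with the row as a block its adjusted p was 0.0785.

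Further genes tied to interstitial cells of Cajal, a list that also held Kitl, the gene of the Kit ligand, did not pass. Of 6 tested, 0 were called by limma, also at an unadjusted p under 0.05. Their median difference was 0.23, with 5 above 0 and 1 below. Thbs4 had the largest, 0.48 (limma adjusted p = 0.405). Etv1, a transcription factor of these cells, differed by 0.10 (limma adjusted p = 0.593). Prkcq, a protein kinase C isoform used as a marker of them, differed by 0.38 (limma adjusted p = 0.252). The 5 genes other than Kitl differed by 0.10 to 0.48. Kitl, which encodes stem cell factor, the ligand of Kit, was the 1 gene below 0. Kitl read -0.12 ± 0.41 on control and -0.42 ± 0.14 on knockout arrays (SD, n = 4), a difference of -0.30 (limma adjusted p = 0.419). Control 3 stood apart at 0.48, against -0.33, -0.16 and -0.45 on control 1, 2 and 4.

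Markers of other sources of Kit and Ano1 were set beside these values. Of 7 mast cell genes, chosen after the Kit value was seen, 4 were tested and 0 passed in limma; 1 had an unadjusted p under 0.05, and Ms4a2, Tpsab1 and Fcer1a were not well above background on any array. Their summed signal, in units of the array percentile, was 1.01 to 1.32 on control and 1.35 to 1.61 on knockout arrays. All 4 tested lay above 0, with a median difference of 0.53. Among them Cma1 cleared the background on 1 of 4 control arrays and entered the test only through the knockout arrays. Cpa3, a mast cell protease, differed by 0.56 (limma adjusted p = 0.101). Stomach epithelial genes moved far more: 8 of 10 passed, all higher, against 2.32% of all genes called higher. They were Gkn1, Gkn2, Tff1, Tff2, Gif, Atp4a, Atp4b and Vsig1. Only Tff2 of the 8 cleared the background on all 4 control arrays. Gkn2, Gif, Atp4a and Vsig1 did so on 0 of them, Atp4b on 1, and Gkn1 and Tff1 on 2. Except for Tff2, they entered the test only through the knockout arrays, where they are high. The summed signal of the 10 genes was 0.746 to 5.45 on control and 382 to 709 on knockout arrays. The part of these cells in the Kit and Ano1 values was not tested.

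**Figure D2:**
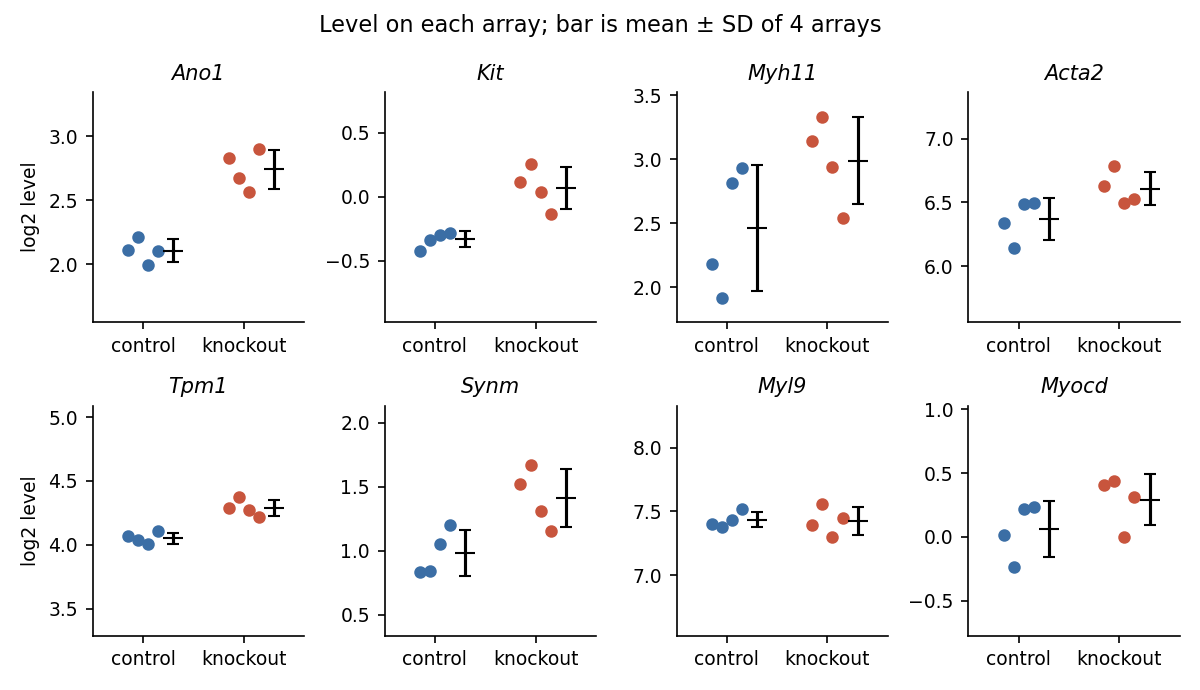
Log2 level on each array (vertical axis, same span in every panel) of Ano1, Kit and 6 muscle members in 4 control (blue) and 4 knockout (red) samples, with mean and SD. Ano1, Kit and Tpm1 separate the groups, and of these Ano1 and Kit passed the threshold. Myl9 overlaps throughout, and Myh11 has the widest spread within groups, 0.49 (SD) on control arrays.

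The 11 thin filament and myosin genes all had differences above 0, from 0.05 to 0.53, with a median of 0.23. In limma 0 passed, and 3 were higher and 0 lower at an unadjusted p under 0.05, against 7.66% and 12.8% of all genes. Myh11, the smooth muscle myosin heavy chain, read 2.18, 1.92, 2.81 and 2.93 on the control arrays and 3.14, 3.33, 2.94 and 2.54 on the knockout arrays. Controls 1 and 2 were low and knockout 4 lay among the controls. The difference was 0.53 (SE 0.25, limma adjusted p = 0.282), the widest interval of any member.

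Acta2, the smooth muscle alpha-actin, read 6.34, 6.15, 6.49 and 6.50 on control and 6.63, 6.78, 6.49 and 6.53 on knockout arrays. Only knockout 3 fell within the control range. Acta2 differed by 0.24 (SE 0.11, limma adjusted p = 0.250). Actg2, the gamma-actin typical of gut muscle, read 6.72 ± 0.26 on control and 6.77 ± 0.19 on knockout arrays (SD, n = 4). Its difference was 0.05, with a 95% interval of -0.29 to 0.38.

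Proteins that decorate the actin filament gave similar values. Tagln (transgelin, an actin-bundling protein) differed by 0.11, Cnn1 (calponin, which damps myosin activity) by 0.19 and Cald1 (caldesmon, which does the same) by 0.29. Cnn2, a calponin made more widely, read 2.42, 2.37, 2.24 and 2.36 on control and 2.57, 2.69, 2.43 and 2.60 on knockout arrays. The ranges of Cnn2 did not overlap, though control 1 and knockout 3 nearly met. Its difference of 0.22 had an adjusted p of 0.168 in limma. Smtn, the actin-binding protein smoothelin, differed by 0.30 (limma adjusted p = 0.202), and Lmod1, a nucleator of actin filaments, by 0.24 (limma adjusted p = 0.452).

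Tropomyosins lie along the actin filament and control access of myosin. Tpm1 read 4.07, 4.04, 4.00 and 4.11 on control and 4.29, 4.38, 4.27 and 4.22 on knockout arrays, with no overlap. The difference was 0.23 (SE 0.07, limma adjusted p = 0.102). Tpm1 passed with quantile normalization, where it differed by 0.34 (limma adjusted p = 0.0435), and with the series matrix values, where it differed by 0.32 (limma adjusted p = 0.0476). Tpm2, whose groups did not overlap either, differed by 0.18 (limma adjusted p = 0.276).

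Tpm1 makes many isoforms by alternative exons, and its 5 probes did not give 1 value. The probe that stands for the gene, at chr9:66871166-66871225 on mm9, differed by 0.23. A probe at chr9:66880274-66880333 differed by 0.15. The remaining 3, between positions 66872131 and 66875855, differed by -0.0048, 0.02 and 0.06. None of the 5 passed when every probe was tested, and the mean of the probes differed by 0.09 (limma adjusted p = 0.480). Which isoforms each probe reports was not determined.

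The 5 tested genes of light chain and calcium control had the smallest median difference of the larger groups, 0.03, and 0 passed in limma, also at an unadjusted p under 0.05. Myl9, the regulatory light chain, read 7.41, 7.38, 7.44 and 7.52 on control and 7.39, 7.56, 7.30 and 7.45 on knockout arrays. The control range lay inside the knockout range. The difference was -0.01, with a 95% interval of -0.20 to 0.17. Mylk, the light chain kinase, differed by 0.02, with an interval of -0.23 to 0.26. Ppp1r12a, the targeting subunit of myosin phosphatase, differed by 0.03, and its second probe by -0.06. Ppp1r14a, which inhibits that phosphatase, differed by 0.09, and Hspb6, a small heat shock protein linked to relaxation, by 0.18. Pln, the phospholamban that restrains the calcium pump of the sarcoplasmic reticulum, cleared the background on 0 control arrays and 1 knockout array, so no fold is given.

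Intermediate filament, dense body and adhesion genes numbered 11, with differences from -0.18 to 0.43 and a median of 0.20. In limma 0 passed, and 3 were higher and 0 lower at an unadjusted p under 0.05, against 7.66% and 12.8% of all genes. Synm, the intermediate filament protein synemin, read 0.83, 0.84, 1.05 and 1.20 on control and 1.52, 1.67, 1.31 and 1.15 on knockout arrays. Knockout 4 fell below control 4, and the other knockout arrays lay above all controls. Synm differed by 0.43 (SE 0.13, limma adjusted p = 0.114), and its other 4 probes differed by 0.20 to 0.40. Des, which encodes desmin, differed by 0.32 (limma adjusted p = 0.304).

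The LIM and PDZ-LIM proteins of this group link actin to alpha-actinin at the dense body. Pdlim7 read 2.73, 2.54, 2.93 and 2.93 on control and 3.11, 3.16, 3.00 and 3.03 on knockout arrays, with no overlap. Its difference was 0.29 (SE 0.10, limma adjusted p = 0.156). Csrp1 read 6.88 ± 0.05 on control and 7.06 ± 0.05 on knockout arrays (SD, n = 4), also without overlap, and differed by 0.17 (limma adjusted p = 0.204). Pdlim3 differed by 0.23 and Csrp2, the second cysteine-rich LIM protein, by 0.10.

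Ldb3, a PDZ-LIM protein better known from the Z disc of striated muscle, was the member with the lowest difference. On control arrays it read 1.62, 1.46, 1.48 and 1.63, and on knockout arrays 1.25, 1.38, 1.56 and 1.29. Knockout 3 lay within the control range and the other knockout arrays lay below it. Ldb3 differed by -0.18 (SE 0.09, limma adjusted p = 0.327), and its second probe by -0.13. The anchoring proteins Synpo2 (an actin-bundling protein), Flna (filamin A), Vcl (vinculin) and Actn1 (alpha-actinin) differed by 0.18, 0.20, 0.20 and 0.13, with limma adjusted p between 0.456 and 0.558.

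Both membrane genes had all knockout arrays above all control arrays, as had 5.41% of all genes tested, and neither passed. Itga8, an integrin subunit of smooth muscle, read 0.33, 0.20, 0.32 and 0.36 on control and 0.59, 0.51, 0.57 and 0.45 on knockout arrays. It differed by 0.23 (SE 0.07, limma adjusted p = 0.127). Cav1, the caveolin that shapes membrane pits in muscle and endothelium, read -1.32, -1.35, -1.33 and -1.48 on control and -0.77, -0.85, -1.29 and -1.14 on knockout arrays. Knockout 1 and 2 were the high arrays for Cav1, while knockout 3 lay just above the controls. Cav1 differed by 0.35 (SE 0.12, limma adjusted p = 0.146).

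**Figure D3:**
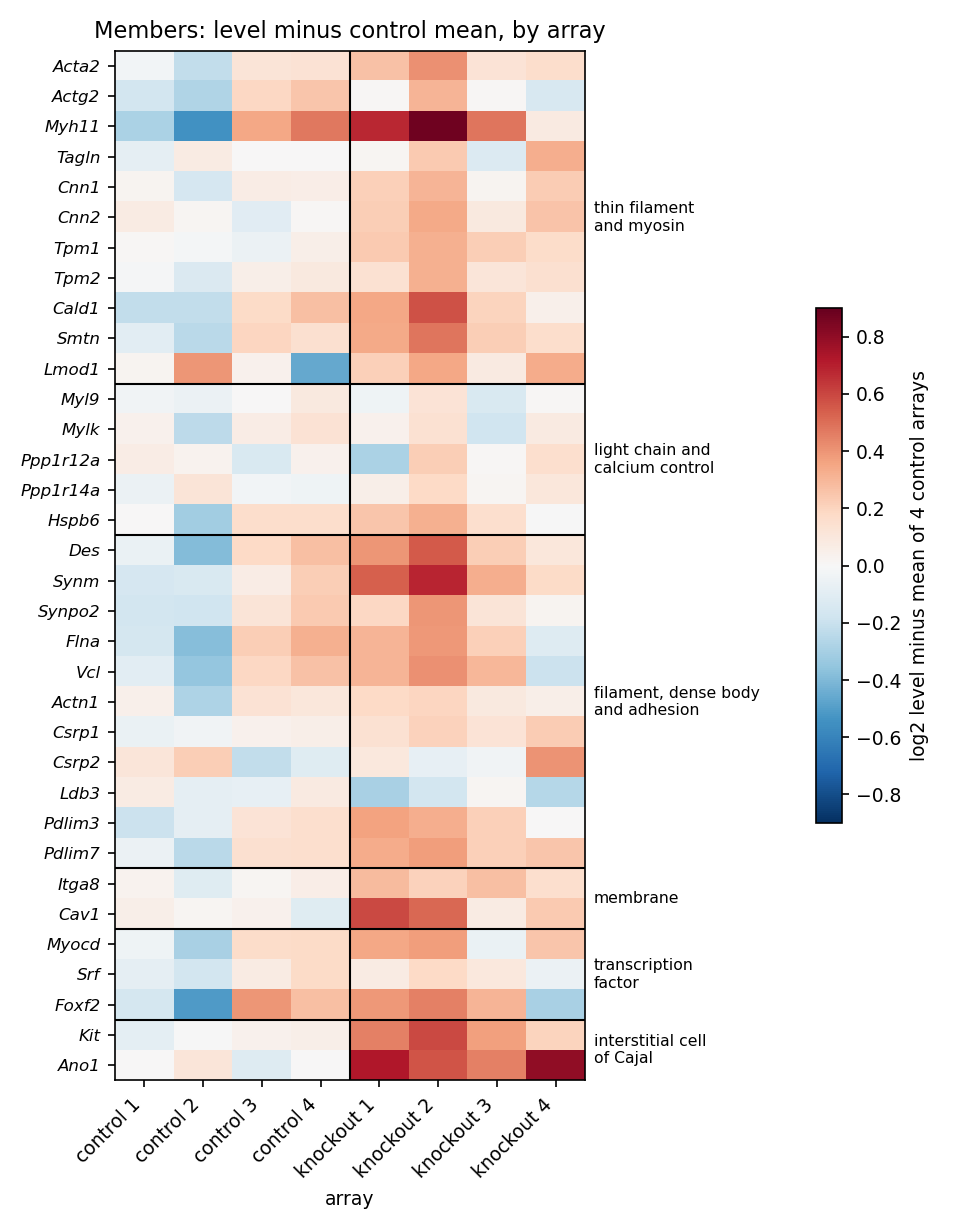
Log2 level of each tested member (rows, in groups by role) on each array (columns) minus the mean of the 4 control arrays, from -0.9 (blue) to 0.9 (red). The Ano1 and Kit rows are red on all 4 knockout arrays; in the muscle rows knockout 2 is the reddest column and control 2 the bluest, with 25 and 19 of the 34 members at their highest and lowest there.

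Transcription factors of the muscle programme did not pass, and none of the 3 tested had an unadjusted p under 0.05 in limma. Myocd, the coactivator myocardin, read 0.02, -0.23, 0.22 and 0.23 on control and 0.41, 0.44, 0.00 and 0.31 on knockout arrays. Its groups overlapped through knockout 3, and the difference was 0.23 (limma adjusted p = 0.387). Srf, its DNA-binding partner, read 1.59 ± 0.15 on control and 1.67 ± 0.10 on knockout arrays (SD, n = 4), a difference of 0.07 (limma adjusted p = 0.697). Foxf2, a forkhead factor of gut mesenchyme, differed by 0.21 with a 95% interval of -0.31 to 0.74. The files list the related gene under its older name Foxf1a; that probe, looked up afterwards, differed by 0.24 (limma adjusted p = 0.449).

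The CArG box was searched for in the 250 bases before the RefSeq start of each gene (GRCm38.p6, another build than the probes), as the 10-base motif known by that name, which reads alike on both strands. Of the 36 members, 30 had an entry; Actg2, Csrp2, Foxf1, Myh11, Myocd and Tagln had none. A box was present in 5 of the 30, or 16.7%, against 439 of 27025 genes in the table, or 1.62%. They were Srf itself, with 2 boxes, Myl9, Cnn2, Vcl and Ldb3. The stretches that hold them are given with the box in capitals, since they show the element these members share.
Srf (chr17:46556175-46556284, minus strand): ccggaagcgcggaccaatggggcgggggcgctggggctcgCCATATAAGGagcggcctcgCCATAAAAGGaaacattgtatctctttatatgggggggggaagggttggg
Myl9 (chr2:156775263-156775352, plus strand): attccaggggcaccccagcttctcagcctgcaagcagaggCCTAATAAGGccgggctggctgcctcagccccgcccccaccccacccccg
Cnn2 (chr10:79988504-79988593, plus strand): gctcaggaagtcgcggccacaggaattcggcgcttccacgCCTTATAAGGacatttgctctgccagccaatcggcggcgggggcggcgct
Vcl (chr14:20929148-20929220, plus strand): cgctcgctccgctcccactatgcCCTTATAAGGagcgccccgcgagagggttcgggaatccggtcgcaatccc
Ldb3 (chr14:34588682-34588756, minus strand): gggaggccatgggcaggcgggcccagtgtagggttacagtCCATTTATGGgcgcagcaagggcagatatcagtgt

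In Srf the boxes began 82 and 62 bases before the start, in Cnn2 56, in Myl9 161 and in Vcl 227 bases before it. Ldb3 has 2 listed starts, and its box began 35 bases before one and 109 before the other. Only exact matches to the motif were counted, so a box with a mismatch or outside the 250 bases was missed. The 5 genes with a box differed by -0.18 to 0.22, with a median of 0.07. The 24 tested genes without an exact match in the window differed by 0.02 to 0.64, with a median of 0.23. These 24 include Ano1 and Kit and were not shown to lack a box elsewhere. Neither called member held the motif in its window. The 100 bases before their starts are shown for comparison.
Ano1 (chr7:144738574-144738673, minus strand): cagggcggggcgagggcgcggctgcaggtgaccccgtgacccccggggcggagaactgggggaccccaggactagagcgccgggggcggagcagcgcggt
Kit (chr5:75574887-75574986, plus strand): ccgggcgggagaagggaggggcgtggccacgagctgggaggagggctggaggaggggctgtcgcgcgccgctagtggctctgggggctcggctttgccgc

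Other smooth muscle genes, from a list of 40, were counted in the same way. Of 39 tested, 2 passed, both higher, and 0 were lower. That count is close to the 4.91% of all genes that passed, 2.32% higher and 2.59% lower. At an unadjusted p under 0.05 in limma, 5 were higher and 2 lower, against 7.66% and 12.8% of all genes. The median difference was 0.11, with 27 above 0 and 12 below. Fhl1, a LIM-only protein of muscle, read -2.26, -2.37, -2.20 and -1.94 on control and -1.37, -1.55, -1.67 and -1.63 on knockout arrays, without overlap. It differed by 0.64 (SE 0.11, limma adjusted p = 0.0146). Fhl1 lost its call without control 1 (limma adjusted p = 0.0543) and without knockout 2 (limma adjusted p = 0.0514), though the difference stayed at 0.61 and 0.64. It also lost it without the filter (limma adjusted p = 0.0565) and with the replicate block (limma adjusted p = 0.0908), 4 of 19 alternatives in all. Chrm3, the muscarinic receptor through which acetylcholine contracts gut muscle, differed by 0.90 (limma adjusted p = 0.0423), but 2 of the 4 controls did not clear the background. Chrm3 thus entered the test, and the count of 2, only through the knockout arrays, where it is high. The call for Chrm3 was lost in 13 of the 18 alternatives that tested it, among them 7 of the 8 that left out 1 array (all but the one without control 3), with limma adjusted p from 0.0131 to 0.191 over all 18. With normexp background correction its difference was 0.20. Myl6, the essential light chain, differed by -0.23 (limma adjusted p = 0.367), and the myocardin-related factors Mkl1 and Mkl2 by 0.11 and 0.13.

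The hedgehog list had 1 of 10 genes past the threshold, called higher, against 2.32% of all genes called higher. Shh, a ligand, cleared the background on 0 control arrays and on all 4 knockout arrays, through which alone it entered the test. It was at least 2.01-fold higher on the knockout arrays. Its limma adjusted p of 4.8e-04 sets signal against background-level readings. Ihh, the main hedgehog ligand of the intestine, differed by -0.08. The targets Ptch1, Gli1 and Hhip, read in the mesenchyme, differed by 0.37, 0.24 and 0.23, with limma adjusted p of 0.398, 0.601 and 0.600.

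The members were also compared array by array with marker lists of other cell types. Each gene's level was set against its mean over the 8 arrays, and the median was taken over a list. For the 34 members this median was -0.14, -0.23, 0.0031 and 0.02 on control 1 to 4 and 0.13, 0.23, 0.04 and 0.03 on knockout 1 to 4. For 10 fibroblast and stroma genes it was -0.32, -0.46, 0.08 and 0.18 on the controls and 0.28, 0.46, 0.31 and -0.41 on the knockout arrays. Controls 1 and 2 were low and knockout 2 high for both lists, but the lists parted on knockout 4. Other lists differed in part: 8 epithelium genes stood at -0.37 on control 2 and 0.09 on control 1, and 5 mesothelium genes at 0.25 and 0.27 there.

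Knockout 4 was low for stroma and for 7 endothelial genes, at -0.41 and -0.50, while the members stood at 0.03 there. Kit and Ano1 stood at 0.24, a median of 2 genes that parted on this array. Kit read -0.13 there, its lowest knockout value, and Ano1 2.90, its highest. The fibroblast and stroma list had 0 of 10 genes past the threshold in limma, also at an unadjusted p under 0.05, with a median difference of 0.26. Its summed signal was 145 to 278 on control and 159 to 317 on knockout arrays. In the epithelium list 0 of 8 passed (3 higher and 1 lower at an unadjusted p under 0.05 in limma), with a median difference of 0.08 and a summed signal of 341 to 478 on control and 467 to 546 on knockout arrays. Pericyte and vascular smooth muscle genes had 0 of 7 past the threshold in limma, also at an unadjusted p under 0.05, and a median difference of 0.16. Of the striated muscle list 10 of 12 were tested and 1 passed, against 4.91% of all genes. It was the embryonic myosin Myh3, which differed by 0.60 (limma adjusted p = 0.0098). At an unadjusted p under 0.05 in limma, 3 were higher and 0 lower, against 7.66% and 12.8% of all genes. Of these 3, Myod1 cleared the background on 2 control arrays and entered the test only through the knockout arrays. Myog and Mylpf were not well above background on any array. The part of these cell types in the members' differences was not tested.

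**Figure D4:**
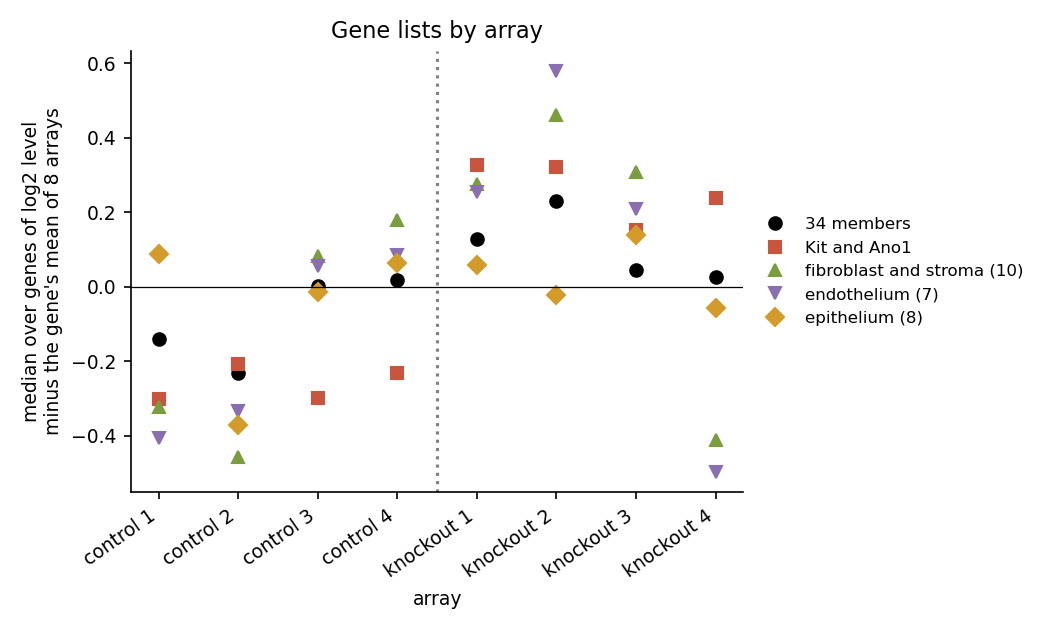
For each array, the median over a list of the log2 level minus the gene's mean over the 8 arrays, for the 34 members and for marker lists. The Kit and Ano1 squares, each a median of 2 genes, lie below 0 on every control array and above 0 on every knockout array. The stroma and endothelium markers stand at -0.41 and -0.50 on knockout 4. On that array Kit was at its lowest knockout level and Ano1 at its highest.

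Spread within groups was small for most members. The SD of the 4 control arrays ran from 0.04 to 0.49 with a median of 0.17, and that of the 4 knockout arrays from 0.05 to 0.34 with a median of 0.15. Control 2 was the lowest control for 21 of 34 members, and knockout 2 the highest knockout array for 26. Within slide row 1, where 1 control met 3 knockout arrays, the median difference of the members was 0.23, with 31 above 0. Within row 2, where 3 controls met 1 knockout array, it was 0.25, with 29 above 0.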

How the data were processed

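Per the file headers, the 1-colour scans were read with Feature Extraction 10.10.1.1 on a grid built on mm9, and the deposited processed signal is an intensity from which a fitted background surface was subtracted and which was detrended; no scaling between arrays is recorded there. The authors' series matrix holds an intensity per spot whose rank correlation with the spot median rounds to 1.00; it is linear and not centred (column medians 129 to 130), and the step that made it is not stated in the sources used here.

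Of 62976 spots, 3671 controls and between 153 and 355 flagged spots per array were left out; none was saturated. Spots of a probe were averaged, giving 55681 probes. A gene was tested if its probe cleared the background in all 4 samples of either group. Where a group had none, the fold is a bound, set by the dimmest probe that cleared it. Groups were compared with limma 3.58.1 (lmFit, eBayes) in R 4.3.3, two-sided. The number of arrays limits the precision. Named are the 36 members and genes of the other lists past the threshold, with further list genes for comparison, which were chosen after their values were seen. Members and lists were chosen with earlier results of these data known. Alternatives covered background, scaling, filter, probe choice, the series matrix, blocks, the variance prior and each array left out. Same-numbered samples did not deviate together (correlations -0.07, -0.17, 0.07 and -0.41), so the numbers were not taken as pairs.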

Additional observations from a re-analysis of the deposited data

Results flagged for a closer look

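Among 76 groups of 4 values, those of the 34 members and of 4 other genes named, 2 had 1 array far from the other 3; chance gives about 5% of groups. Ppp1r12a stood at 3.85 on control 3, against 4.02 to 4.05 on the other controls. Rfx6 stood at -3.74 on control 4, against -2.98 to -2.91 on the other controls.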

How the results depend on the processing

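Of the 34 members, 29 kept their direction under all 19 alternatives, and between 29 and 33 members lay above 0. The median of all genes ran from -0.095 to 0.01 and that of the members from 0.15 to 0.29. Ano1 passed in every alternative and Kit in 7. The count of members called higher was 1 with median centring, without the filter, with every probe tested, with the replicate block and with the slide row as a block, and 1 to 2 when 1 array was left out. Without the filter 498 genes were called in all and 0 of the other smooth muscle genes (limma; 6 at an unadjusted p under 0.05); with the replicate block, 411 and 0 (3 unadjusted). With 1 array left out, 578 to 1102 genes were called in all, and 0 to 2 of the other smooth muscle genes (3 to 8 unadjusted). Of these, 1 was called with normexp, with the filter on all 8 arrays and with the trended robust prior. Under the filter on all 8 arrays Chrm3 was left out, since 2 of the 4 controls did not clear the background. The cause of the other shifts was not tested. The replicate block moved no member's direction; Ano1 then had a limma adjusted p of 0.0479 and Kit 0.189.

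The 5 members that changed sign all had differences near 0, and the cause was not tested. Myl9 was 0.018 with normexp, 0.14 with quantile normalization, 0.053 with median centring and 0.16 with the series matrix values. Ppp1r12a was -0.018 with the mean of its probes and -0.10 with the slide row as a block. With 1 array left out Actg2 ran from -0.046 to 0.13, Myl9 from -0.057 to 0.031, Mylk from -0.061 to 0.085, Ppp1r12a from -0.039 to 0.13 and Csrp2 from -0.0011 to 0.17. No member was called lower in any alternative by limma; 1 had an unadjusted p under 0.05, without knockout 3.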

Other observations

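The mesothelium, which covers the outer muscle layer, was measured with 5 marker genes, and 0 passed in limma; 1 was higher and 1 lower at an unadjusted p under 0.05. Msln, a surface protein of mesothelium, differed by 0.47 (limma adjusted p = 0.0935) with all knockout arrays above the controls. Upk3b, another marker of these cells, differed by -0.70 (limma adjusted p = 0.169). Of 8 genes of enteric neurons and glia, which lie between the muscle layers, 0 passed in limma and 1 was lower at an unadjusted p under 0.05; their median difference was 0.07.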
